A study of Homo sapiens with 4 samples.

Results

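Genes of the bone morphogenetic protein (BMP) pathway are described in HS578T cells with and without depletion of talin-1: the ligand genes BMP2, BMP4 and BMP6, the protease gene BMP1, the extracellular antagonist gene GREM1, the intracellular inhibitor gene SMAD6, and the target genes ID1, ID2 and ID3. The 9 members were chosen by name from the 60721 genes of the deposited count table, and each matched 1 Ensembl gene identifier. HS578T is an established line from a human breast carcinoma, labelled as epithelial. All cells were transfected with GFP together with 1.6 µM of RNA, which was a non-targeting scramble in the SCR group and an siRNA against TLN1, the gene of talin-1, in the siTLN1 group. RNA was collected 48 h later, polyadenylated RNA was sequenced, and each group held 2 libraries described as biological replicas. The labels give neither the siRNA sequence nor the number of siRNAs, so the siTLN1 group stands for 1 reagent in 1 cell line.

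BMPs are secreted dimers of the TGF-beta superfamily that bind pairs of type I and type II serine/threonine kinase receptors. The receptors phosphorylate SMAD1, SMAD5 and SMAD9, which join SMAD4 in the nucleus and switch on genes such as ID1, ID2, ID3 and SMAD6. ID proteins bind E proteins and keep them off DNA, SMAD6 feeds back to dampen the receptors, and antagonists such as gremlin-1 trap the ligands outside the cell. In spite of its name BMP1 encodes no such ligand but a metalloprotease that trims procollagens and the BMP antagonist chordin.

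The libraries held from 31854322 to 46353297 counts. The count columns carry the numbers 6 and 7, each once per group, and the libraries are called a (number 6) and b (number 7) here. What these numbers mark is not given in the sources used here. TLN1 was at 868 and 874 CPM (counts scaled to library size) in SCR libraries a and b and at 51.9 and 44.8 CPM in siTLN1 libraries a and b, so the target transcript was low in both libraries labelled siTLN1. Of 8 luminal epithelial markers only KRT8, KRT18 and GATA3 reached 1 CPM in SCR, whereas all 8 markers of mesenchymal breast lines did. The 8 mesenchymal markers summed to between 37471 and 40581 CPM in SCR and between 38602 and 44288 CPM in siTLN1, sums carried mostly by FN1. Within that list CDH2 (552 to 298 CPM, adjusted p 2.45e-05), SPARC (5018 to 3602 CPM, adjusted p 0.0161) and CAV1 (1499 to 1141 CPM, adjusted p 0.0270) fell in edgeR's quasi-likelihood test, and their part in the other results was not tested. Endothelial markers summed to at most 6.17 CPM, haematopoietic markers to at most 0.912 CPM and adipocyte markers to at most 0.0629 CPM in any library, with CD3E, LYZ, ADIPOQ and LEP at 0 counts throughout.

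Of the 9 members, 8 had enough counts to be tested and have a row in the authors' deposited log2 CPM table. GREM1 has no row there and did not pass the filter on low counts (edgeR's filterByExpr). BMP2 and BMP4 rose in siTLN1. BMP6 was also called higher, but it passed the filter only through the siTLN1 group, where it was the higher, and its call was lost in 3 of the 4 fits that each left out 1 library. The other 5 tested members did not pass the test. The test was edgeR's quasi-likelihood test, with p-values adjusted by Benjamini-Hochberg over all 16137 tested genes and a threshold of 0.05. It called 6.07% of those genes in either direction, 2.30% as higher and 3.77% as lower in siTLN1. Of the tested members it called 3 of 8 higher and 0 lower, or 2 of 7 higher without BMP6. The members were chosen with earlier results of these data known, so these shares describe them and test nothing. The p-values measure the spread between these libraries. With 2 libraries per group an exact permutation test cannot go below p = 0.333 for any one gene, so genes were tested in the model fitted across the whole table. In bulk RNA, fewer cells of a kind and less RNA per cell cannot be told apart.

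**Figure D1:**
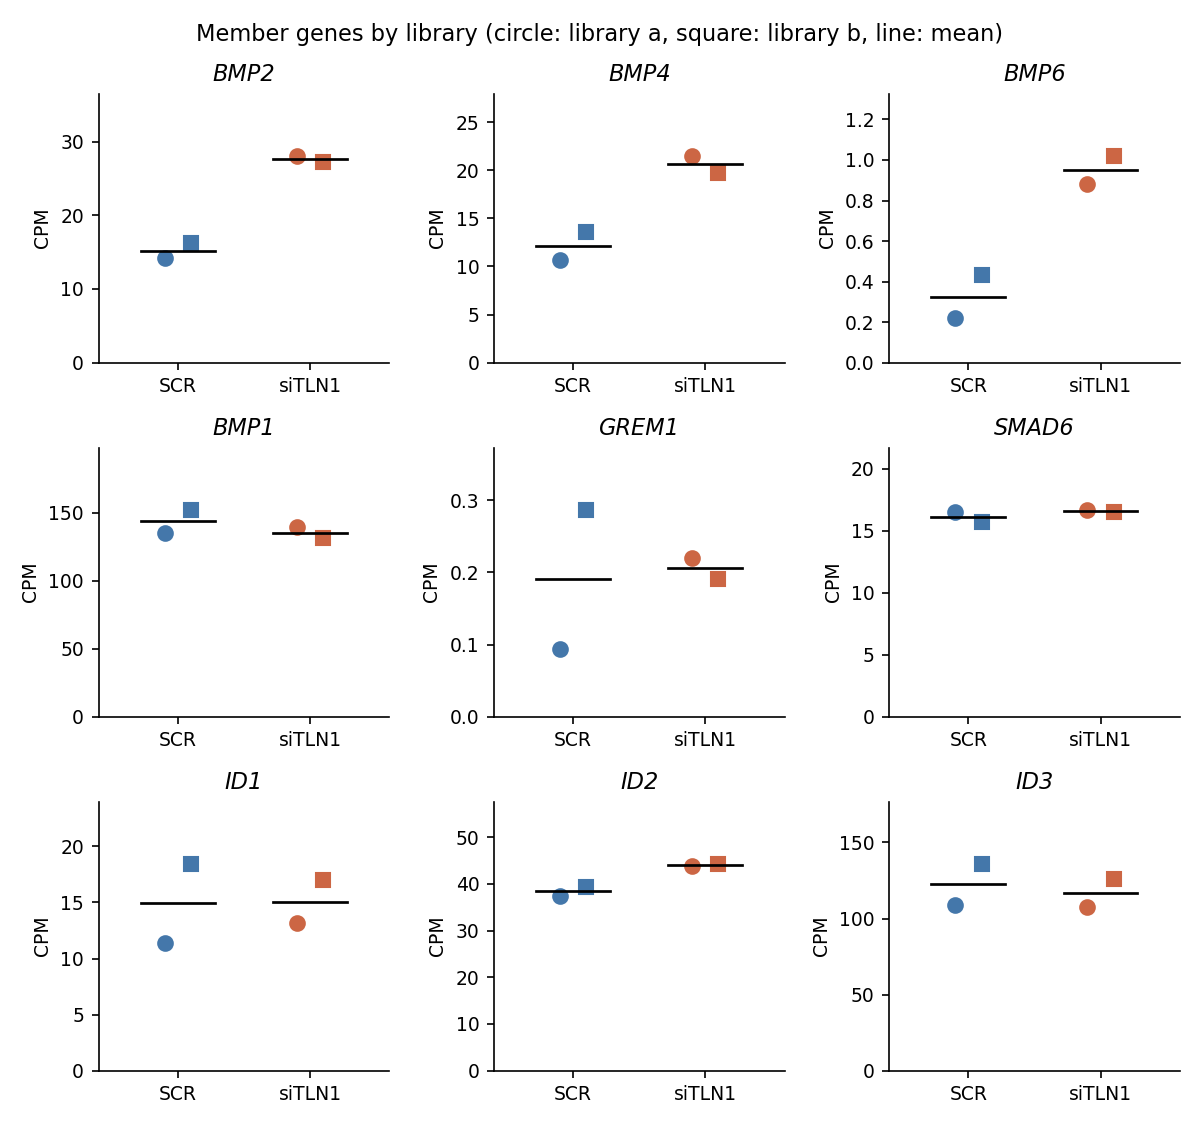
Library-scaled counts (CPM, y axis from 0, with its own scale in each panel) of the 9 members in SCR and siTLN1. Circles are library a, squares library b and lines the mean of the 2 libraries. The siTLN1 points of BMP2, BMP4, BMP6 and ID2 lie above both SCR points. ID1, ID3, BMP6 and, only slightly, ID2 are higher in library b than in library a of both groups.

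The sequences around the starts of members are shown for BMP4, which rose, and for BMP6, which passed the filter only through siTLN1. They are also shown for ID1 and ID3, which did not pass the test. Each run below spans 250 bases before to 50 bases after a RefSeq gene start (GRCh38.p14), 5′ to 3′ on the gene's strand, and capitals mark GGCGCC, the GC-rich element bound by SMAD1 and SMAD5, which reads the same on both strands. The BMP4 run is that of the outermost of the 3 starts in the RefSeq table (chr14:53955001-53955300, minus strand), that of BMP6 is chr6:7725849-7726148 (plus strand), that of ID1 chr20:31605039-31605338 (plus strand) and that of ID3 chr1:23559452-23559751 (minus strand).
BMP4: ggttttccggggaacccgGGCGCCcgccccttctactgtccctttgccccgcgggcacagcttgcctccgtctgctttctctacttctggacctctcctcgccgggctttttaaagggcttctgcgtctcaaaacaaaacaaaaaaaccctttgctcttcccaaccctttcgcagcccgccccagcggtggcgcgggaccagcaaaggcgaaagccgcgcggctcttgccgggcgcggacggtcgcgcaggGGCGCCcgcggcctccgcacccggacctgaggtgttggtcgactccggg
BMP6: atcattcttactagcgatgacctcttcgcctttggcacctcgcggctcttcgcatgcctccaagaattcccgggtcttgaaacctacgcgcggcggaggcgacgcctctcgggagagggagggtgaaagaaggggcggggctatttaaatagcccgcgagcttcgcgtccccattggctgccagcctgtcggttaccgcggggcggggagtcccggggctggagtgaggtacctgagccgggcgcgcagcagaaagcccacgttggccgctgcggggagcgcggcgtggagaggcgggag
ID1: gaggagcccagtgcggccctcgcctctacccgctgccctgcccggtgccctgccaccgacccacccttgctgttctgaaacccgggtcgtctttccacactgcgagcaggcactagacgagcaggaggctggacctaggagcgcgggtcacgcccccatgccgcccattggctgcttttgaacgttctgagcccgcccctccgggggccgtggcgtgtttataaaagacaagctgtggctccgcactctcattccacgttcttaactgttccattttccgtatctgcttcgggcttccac
ID3: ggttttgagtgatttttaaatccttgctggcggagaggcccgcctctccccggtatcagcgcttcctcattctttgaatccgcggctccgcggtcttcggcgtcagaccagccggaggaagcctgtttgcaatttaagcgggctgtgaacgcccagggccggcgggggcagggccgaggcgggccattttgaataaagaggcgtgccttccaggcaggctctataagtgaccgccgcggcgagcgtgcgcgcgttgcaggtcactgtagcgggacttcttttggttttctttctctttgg
The starts read here number 10 and cover 7 of the 9 members. BMP1 and BMP2 are not covered, and whether their starts hold GGCGCC was not examined. Of the 10 starts 2 hold GGCGCC, namely the BMP4 start shown and the first of 2 GREM1 starts, each with 2 copies. Among all 35116 promoters of the table, 19.2% hold it. The printed promoters have a GC content of 66% for BMP4 and for BMP6, 62.7% for ID1 and 59.7% for ID3, against a median of 58.7% over all promoters. The counts are per gene and do not show which BMP4 start was used, and a missing match says only that these letters are absent from this window.

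BMP2 (ENSG00000125845.7; GRCh38, chromosome 20, 6767686 to 6780246, plus strand) encodes a ligand best known for driving bone formation. Its level was 14.2 and 16.2 CPM in SCR libraries a and b and 28.1 and 27.2 CPM in siTLN1 libraries a and b. Both siTLN1 libraries were above both SCR libraries, and the group means were 15.2 ± 1.46 CPM (SD, n = 2) and 27.6 ± 0.656 CPM (SD, n = 2). The fitted change was 0.86 on the log2 scale (standard error 0.11), which is a 1.82-fold rise with a 95% interval of 1.55 to 2.14, and edgeR's quasi-likelihood test gave an adjusted p of 0.000152. A larger log2 fold change was seen in 237 of the 16137 tested genes (1.47%).

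BMP4 (ENSG00000125378.16; chromosome 14, 53949736 to 53958761, minus strand) encodes the close relative of BMP2, which binds the same receptors. It stood at 10.7 and 13.6 CPM in SCR libraries a and b and at 21.5 and 19.7 CPM in siTLN1 libraries a and b, again without overlap of the groups. The means were 12.1 ± 2.04 CPM (SD, n = 2) and 20.6 ± 1.26 CPM (SD, n = 2). The fitted change was 0.76 on the log2 scale (standard error 0.13), a 1.70-fold rise (95% interval 1.41 to 2.05), with an adjusted p of 0.00169 from the same test. The authors' counting set no strand option, and 16.3% of the exon bases of BMP4 also lie in exons of ENSG00000287156 on the opposite strand. That gene had 10 and 6 raw counts in SCR and 26 and 39 in siTLN1, against 339 and 472 and then 783 and 927 for BMP4. The share of BMP4 reads in the overlap was not measured.

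BMP6 (ENSG00000153162.9; chromosome 6, 7726099 to 7881728, plus strand) encodes a ligand of the BMP5, BMP6 and BMP7 branch, known for its part in iron balance. It was scarce, with 7 and 15 raw counts in SCR libraries a and b and 32 and 48 in siTLN1 libraries a and b. On the scaled level this was 0.220 and 0.431 CPM in SCR and 0.879 and 1.02 CPM in siTLN1, so the groups did not overlap, but SCR library b exceeded SCR library a by 0.97 on the log2 scale. The fitted change was 1.53 on the log2 scale (standard error 0.42), a 2.88-fold rise whose 95% interval reached from 1.57 to 5.30, with an adjusted p of 0.0256 from the same test. That call was lost without SCR library a (log2 fold change 1.15, adjusted p = 0.144), without siTLN1 library a (1.62, adjusted p = 0.0614) and without siTLN1 library b (1.41, adjusted p = 0.0828), and it held without SCR library b (2.11, adjusted p = 0.0100). DESeq2 gave BMP6 no adjusted p. Exons of TXNDC5 or BLOC1S5-TXNDC5 on the opposite strand cover 5.60% of the exon bases of BMP6, and TXNDC5 was between 25.6 and 28.9 CPM in the 4 libraries.

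Read between libraries that share a column number, the log2 ratio of siTLN1 to SCR was 0.99 for BMP2 in the a libraries and 0.74 in the b libraries. For BMP4 these ratios were 1.01 and 0.54, and for BMP6 they were 2.00 and 1.25. BMP2 and BMP4 were thus higher in siTLN1 under either number, with the larger ratio in the a libraries, where their SCR level was the lower. The BMP6 ratios are given as values only, since its siTLN1 counts brought it into the test.

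BMP1 (ENSG00000168487.19; chromosome 8, 22165140 to 22212326, plus strand) was at 136 and 152 CPM in SCR libraries a and b and at 139 and 132 CPM in siTLN1 libraries a and b. The groups overlapped. Its log2 change was −0.088, standard error 0.095 (adjusted p 0.683, edgeR's quasi-likelihood test), and the 95% interval of the fold ran from 0.818 to 1.08. Another annotated gene on the same strand shares 6.52% of its exon bases and one on the opposite strand 0.241%, and neither exceeded 0.115 CPM in any library. The 3 other tested genes of the BMP1-family list held 0 calls by edgeR and by DESeq2. In edgeR 0 of the 3 had an unadjusted p under 0.05, against 19.8% of all tested genes. Of these 3 genes, PCOLCE encodes an enhancer of BMP1 activity on procollagen and was the highest of the list per exon length. It was at 278 and 355 CPM in SCR and at 296 and 297 CPM in siTLN1 (log2 fold change −0.094, adjusted p 0.713, edgeR's quasi-likelihood test). PCOLCE shares 16.8% of its exon bases with PCOLCE-AS1 on the opposite strand.

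GREM1 (ENSG00000166923.12; chromosome 15, 32718004 to 32745106, plus strand), the gene of the BMP antagonist gremlin-1, was barely detected. It had 3 and 10 raw counts in SCR libraries a and b and 8 and 9 in siTLN1 libraries a and b. The exact 95% Poisson interval of the 3 counts reached from 0.619 to 8.77 and that of the 10 counts from 4.80 to 18.4, so the libraries of SCR alone span the siTLN1 values, and these intervals cover counting error only. The scaled levels were 0.0944 and 0.287 CPM in SCR and 0.220 and 0.192 CPM in siTLN1. With the filter on low counts removed, the log2 fold change was 0.076 with a 95% interval of −1.21 to 1.36 (edgeR, adjusted p 0.956). These counts therefore do not settle whether GREM1 rose or fell within that interval. GREM1-AS1, which shares 2.48% of its exon bases on the opposite strand, had 0 counts in all 4 libraries.

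SMAD6 (ENSG00000137834.15; chromosome 15, 66702236 to 66782849, plus strand), a feedback inhibitor that is itself switched on by BMP signalling, differed little among the 4 libraries. It was at 16.5 and 15.7 CPM in SCR libraries a and b and at 16.7 and 16.5 CPM in siTLN1 libraries a and b. The means were 16.1 ± 0.575 CPM (SD, n = 2) and 16.6 ± 0.134 CPM (SD, n = 2), with overlapping groups. The change was 0.041 on the log2 scale (standard error 0.11), with an adjusted p of 0.894 in edgeR's quasi-likelihood test, and the 95% interval of the fold was 0.875 to 1.21. The SMAD6 interval lies below the fitted folds of BMP2 (1.82) and BMP4 (1.70), although the difference between genes was not tested.

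The 3 ID genes, which encode helix-loop-helix proteins without a DNA-binding region, did not pass the test in either direction. ID1 (ENSG00000125968.9; chromosome 20, 31605283 to 31606515, plus strand) was at 11.4 and 18.5 CPM in SCR libraries a and b and at 13.2 and 17.0 CPM in siTLN1 libraries a and b. Both siTLN1 values lay between the SCR values. The fitted log2 change was 0.017, standard error 0.21 (adjusted p 0.981, edgeR's quasi-likelihood test), and the 95% interval of the fold was wide, from 0.722 to 1.42. The b library exceeded the a library by 0.70 on the log2 scale in SCR and by 0.37 in siTLN1, while siTLN1 differed from SCR by 0.21 in the a libraries and −0.12 in the b libraries. With SCR library a left out the log2 change of ID1 was −0.29, with SCR library b left out 0.41, with siTLN1 library a left out 0.19 and with siTLN1 library b left out −0.18, so its sign depended on the library left out.

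ID3 (ENSG00000117318.9, chromosome 1, 23557926 to 23559501, minus strand), like ID1, was higher in library b than in library a of both groups. So were BMP6 (by 0.97 in SCR and 0.22 in siTLN1 on the log2 scale) and, by less, ID2 (0.075 and 0.016). ID3 was at 109 and 136 CPM in SCR libraries a and b and at 107 and 126 CPM in siTLN1 libraries a and b. Its b libraries exceeded its a libraries by 0.32 (SCR) and 0.23 (siTLN1) on the log2 scale, while siTLN1 differed from SCR by −0.02 in the a libraries and −0.11 in the b libraries. The fitted log2 change of ID3 was −0.071, standard error 0.12 (adjusted p 0.811, same test; 95% interval of the fold 0.800 to 1.13). Its sign turned without SCR library b, to 0.098, and without siTLN1 library a, to 0.043.

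ID2 (ENSG00000115738.10; chromosome 2, 8678845 to 8684461, plus strand) was the only ID gene whose groups did not overlap. It was at 37.4 and 39.4 CPM in SCR libraries a and b and at 43.8 and 44.3 CPM in siTLN1 libraries a and b, with log2 ratios of 0.23 in the a libraries and 0.17 in the b libraries. The fitted log2 change was 0.20 (standard error 0.096), the 95% interval of the fold was 0.996 to 1.32, and the adjusted p of 0.269 from edgeR's quasi-likelihood test missed the threshold. Groups without overlap made up 23.9% of all tested genes with siTLN1 the higher and 24.6% with siTLN1 the lower. Of the 8 tested members these were 4 and 0, and the 4 include BMP6, which passed the filter only through siTLN1. ID2 passed only in the fit with the replicate number of the labels as a block (adjusted p = 0.0277, limma-trend). That fit called 3645 of all 16137 tested genes. ID2-AS1 on the opposite strand shares 6.55% of the exon bases of ID2 and was at 0.472 and 0.488 CPM in SCR and 0.742 and 0.596 CPM in siTLN1. ID4, the fourth gene of the family, had 0 counts in all 4 libraries. For a count of 0 the upper 95% Poisson bound (1-sided) is about 3 counts. That is between 0.0638 and 0.0944 CPM, depending on the library.

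For ID1, ID2, ID3 and SMAD6 together, edgeR's quasi-likelihood test called 0 of 4, and 0 of 4 had an unadjusted p under 0.05, which 19.8% of all tested genes had. DESeq2, limma-voom and limma-trend without a block also called 0 of the 4. The difference between these genes and the ligand genes was not tested.

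**Figure D2:**
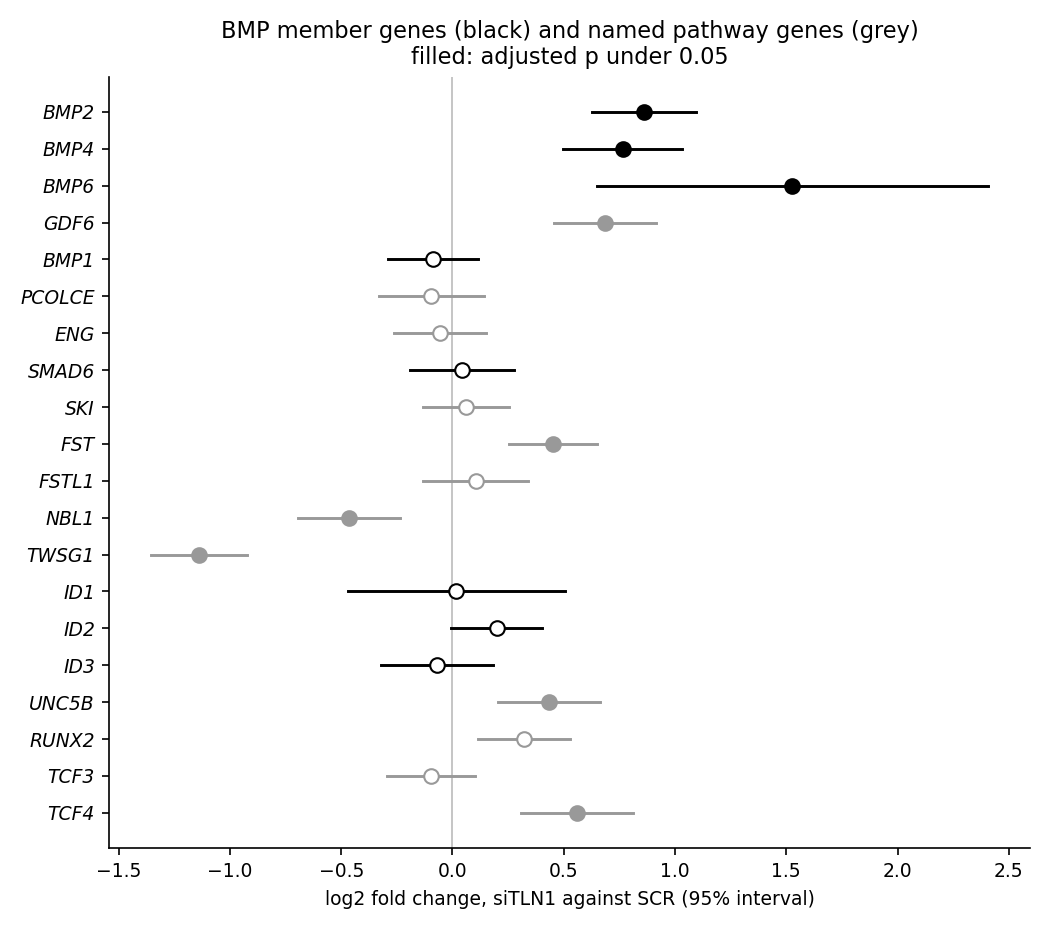
Fitted log2 fold change (x axis, siTLN1 against SCR) with its 95% interval for the 8 tested members (black) and the other named pathway genes (grey), in order of role from ligands to E proteins. Filled points have an adjusted p under 0.05; the intervals of BMP2, BMP4 and BMP6 lie above 0, and those of BMP1, SMAD6, ID1, ID2 and ID3 include 0.

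Levels of different members were compared per exon length, in CPM per kilobase of exon. In SCR the order of mean levels was ID3 at 82.0, BMP1 at 20.4, ID2 at 17.4, ID1 at 12.1, BMP2 at 4.28, BMP4 at 3.91, SMAD6 at 1.89, BMP6 at 0.0860 and GREM1 at 0.0129 CPM per kilobase. Neighbours in this order did not overlap between their SCR libraries, except BMP2 (3.99 and 4.58) and BMP4 (3.44 and 4.38). In siTLN1 the levels were 7.80 ± 0.185 CPM per kilobase (SD, n = 2) for BMP2 and 6.66 ± 0.407 (SD, n = 2) for BMP4, and ID2 at 19.9 stood above BMP1 at 19.2. The exon length is that of all annotated isoforms joined, and which isoforms were used is not shown by counts per gene.

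**Figure D3:**
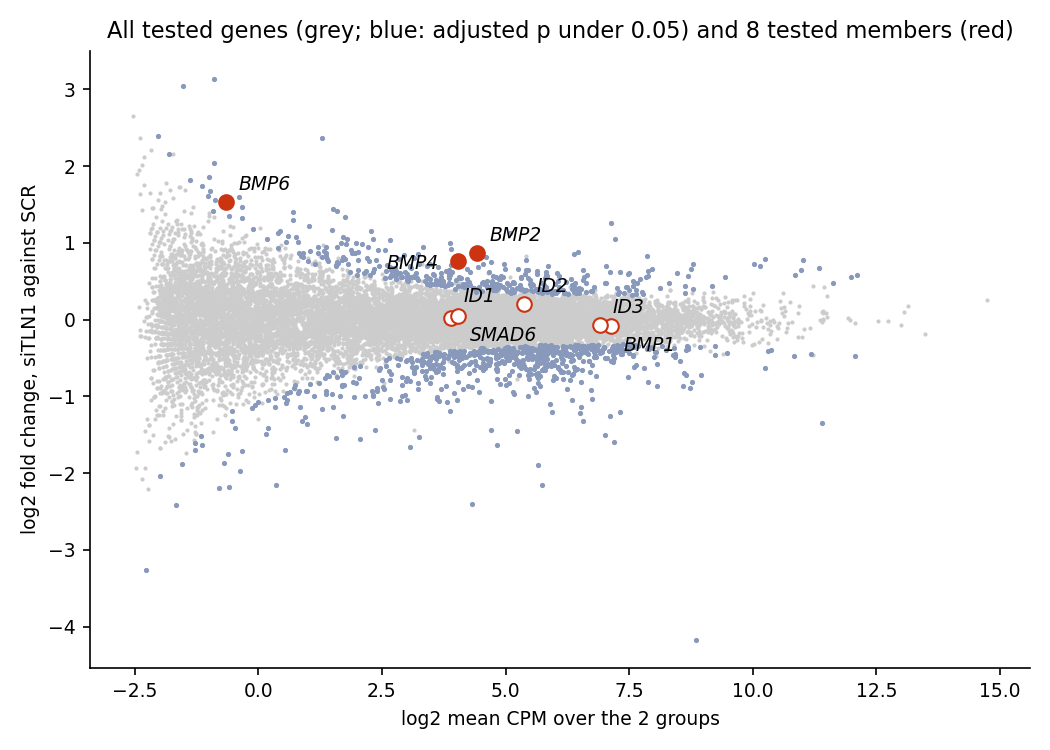
Each point is 1 of 16137 tested genes, with the log2 of its mean CPM over both groups on the x axis and its log2 fold change on the y axis; grey points did not pass, blue points have an adjusted p under 0.05. The 8 tested members are red circles, filled where they passed; BMP2 and BMP4 lie above most genes of like level, BMP6 is in the low range where fold changes scatter widely, and SMAD6, ID1, ID2, ID3 and BMP1 lie in the dense band around 0.

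A further 65 genes of the pathway were listed by role, of which 44 were tested. Among them 5 rose and 2 fell, their median log2 fold change was 0.16, and over all tested genes the median was 0.0033 with 6.07% called. BMP8A, BMP8B and TLL1 passed the filter on low counts only through siTLN1, where they were the higher. The median of the pathway genes includes them and was not computed without them. Without siTLN1 library a the log2 fold change was 0.72 for GDF6 and −1.19 for TWSG1. The list of other ligand genes held 11, of which 4 were tested, BMP8A and BMP8B among them. Of the 4, 1 rose, against 2.30% of all tested genes called higher. GDF6 (growth differentiation factor 6, a BMP-family ligand; ENSG00000156466.10, chromosome 8, 96142333 to 96160806, minus strand) was at 15.7 and 17.7 CPM in SCR and at 26.3 and 27.4 CPM in siTLN1. Per kilobase of exon its mean was 4.50 in SCR and 7.23 in siTLN1, beside 4.28 and 7.80 for BMP2. Its log2 change was 0.69, standard error 0.11 (adjusted p 0.00110, edgeR's quasi-likelihood test). The other tested ligand genes were GDF5 with a log2 fold change of 0.27 (adjusted p 0.532), BMP8A with 1.28 (adjusted p 0.172) and BMP8B with 1.20 (adjusted p 0.246) in that test. BMP8A and BMP8B are near-identical copies with at most 20 raw counts per library, and the split of their reads is uncertain.

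Among receptors and co-receptors 0 of 9 tested genes passed, with a median log2 fold change of 0.17, although 3 had an unadjusted p under 0.05, against 19.8% of all tested genes. DESeq2, limma-voom and limma-trend also called 0, total counts only called 1, leaving out siTLN1 library b called 2 and the replicate block 4. ENG, the gene of the co-receptor endoglin and the highest of that list per exon length, was at 126 and 145 CPM in SCR and at 135 and 125 CPM in siTLN1, with overlapping groups and a log2 fold change of −0.055 (adjusted p 0.826, edgeR's quasi-likelihood test). Its exons share 7.95% of their bases with a gene on the opposite strand. Among SMADs and their intracellular regulators 0 of 9 passed, with a median of 0.19 and 3 at an unadjusted p under 0.05 in edgeR, again beside 19.8% of all tested genes. DESeq2, limma-voom and limma-trend called 0 of them and the replicate block 5. The block counts of both lists stand beside 3645 of all 16137 tested genes called in that fit. SKI, a nuclear corepressor of SMADs and the highest of that list per exon length, was at 139 and 148 CPM in SCR and at 146 and 154 CPM in siTLN1 (log2 fold change 0.061, adjusted p 0.788, same test).

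Among antagonists and extracellular modulators 2 of 10 tested genes were called higher and 2 lower, against 2.30% and 3.77% of all tested genes. TWSG1, whose protein twisted gastrulation binds BMPs together with chordin and can raise or lower their activity, was at 137 and 116 CPM in SCR libraries a and b and at 59.6 and 55.2 CPM in siTLN1 libraries a and b (ENSG00000128791.12; chromosome 18, 9334767 to 9402420, plus strand). It fell to 45.5% of the SCR mean, a log2 change of −1.14 (standard error 0.10) with an adjusted p of 4.81e-06 in edgeR's quasi-likelihood test. NBL1, which encodes the antagonist DAN, was at 79.1 and 93.9 CPM in SCR and at 58.4 and 66.9 CPM in siTLN1 (log2 fold change −0.46, adjusted p 0.0167, same test). NBL1 shares 17.8% of its exon bases with MICOS10 or the MICOS10-NBL1 readthrough on the same strand, MICOS10 was at most 16.6 CPM, and the NBL1 call was lost without SCR library b (−0.33, adjusted p = 0.103) and without siTLN1 library a (−0.37, adjusted p = 0.237).

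FST, the gene of follistatin, which binds activins and some BMPs, was at 68.2 and 71.2 CPM in SCR and at 98.0 and 92.5 CPM in siTLN1 (log2 fold change 0.45, adjusted p 0.00776, edgeR's quasi-likelihood test), a call lost without siTLN1 library a (0.41, adjusted p = 0.122). FSTL1, a follistatin-like secreted protein gene and the highest of the list per exon length, was at 2750 and 2420 CPM in SCR and at 2898 and 2662 CPM in siTLN1 (log2 fold change 0.10, adjusted p 0.676, same test).

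Of 6 tested targets outside the members 1 rose, against 2.30% of all tested genes. In edgeR 3 of the 6 had an unadjusted p under 0.05, beside 19.8% of all tested genes. With the replicate block 3 passed, namely ATOH8, RUNX2 and UNC5B, in a fit that called 3645 of all 16137 tested genes. UNC5B, a netrin receptor gene, was at 35.3 and 43.0 CPM in SCR and at 54.5 and 51.3 CPM in siTLN1 (log2 fold change 0.43, adjusted p 0.0247, edgeR's quasi-likelihood test), and its call was lost without SCR library a (0.30, adjusted p = 0.165) and without siTLN1 library a (0.39, adjusted p = 0.215). RUNX2, the transcription factor gene that directs bone cell formation and the highest of that list per exon length, was at 81.5 and 72.2 CPM in SCR and at 100.2 and 91.8 CPM in siTLN1, a log2 fold change of 0.32 that missed the threshold (adjusted p 0.0658, same test). It passed with total counts only (adjusted p = 0.0439), with the gene-length trend removed (adjusted p = 0.0360), without SCR library a (adjusted p = 0.0281) and with the replicate block (adjusted p = 3.46e-05). Of the 3 E proteins, the partners that ID proteins bind, TCF4 rose from 34.9 and 29.5 CPM in SCR to 52.2 and 42.8 CPM in siTLN1 (log2 fold change 0.56, adjusted p 0.0105, same test), a call lost without siTLN1 library a (0.41, adjusted p = 0.181). TCF3 was at 111 and 120 CPM in SCR and at 106 and 111 CPM in siTLN1 (log2 fold change −0.097, adjusted p 0.629, same test).

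**Figure D4:**
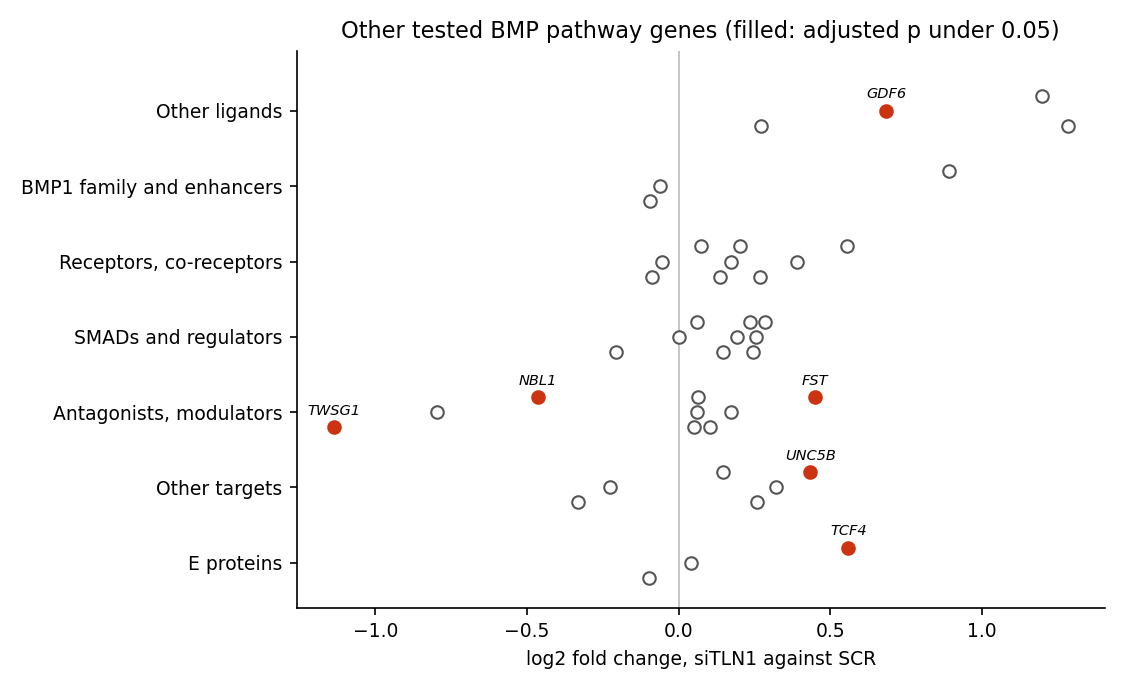
Log2 fold change (x axis, siTLN1 against SCR) of the tested pathway genes outside the members, 1 row per role and with 1 antagonist gene not drawn; filled points have an adjusted p under 0.05 and are named. The vertical scatter within a row only separates points; GDF6, FST, UNC5B and TCF4 lie to the right of 0, TWSG1 and NBL1 to the left, and no receptor or SMAD gene is filled.

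A 7-base word, GACAACA, was looked up in the transcripts of the members. Of 948 tested genes whose chosen transcript has it in its 3′ UTR, 16.8% were called lower in siTLN1, against 3.48% of 11049 genes without it. Only 11997 of the 16137 tested genes entered, those with a coding transcript whose 3′ UTR met a minimum length, without TLN1. NBL1 and TCF4, with chosen 3′ UTRs of 0 and 99 bases, were left out. Genes with and without the word were not matched for 3′ UTR length. The word was taken from earlier results of these data, so these shares describe it and test nothing. None of the 9 members holds it in the 3′ UTR of the transcript with the longest coding sequence (GENCODE 29), but 7 of 12 BMP1 transcripts do in theirs. BMP1 holds 3 copies and BMP6 1 copy in coding sequence, and BMP2, BMP4, GREM1, ID1, ID2, ID3 and SMAD6 hold it in none of their coding sequences or 3′ UTRs. Of the 44 tested pathway genes TWSG1, SKIL and FSTL3 have 1 copy each in the 3′ UTR, and of these TWSG1 alone was called. The sites of TLN1, TWSG1, BMP6 and FST are shown 5′ to 3′ with the word in capitals and the bases around it in lower case. TLN1 and TWSG1 fell, while BMP6 and FST were called higher with all 4 libraries.
TLN1, coding: tagaggacctGACAACAaccctcaacg
TWSG1, 3′ UTR: tcttaatgatGACAACAaatattttaa
BMP6, coding: agccggcgccGACAACAgagtcgtaat
FST, coding: ggacgtgaatGACAACAcactcttcaa
The part of the word in the change of any of these genes was not tested.

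**Figure D5:**
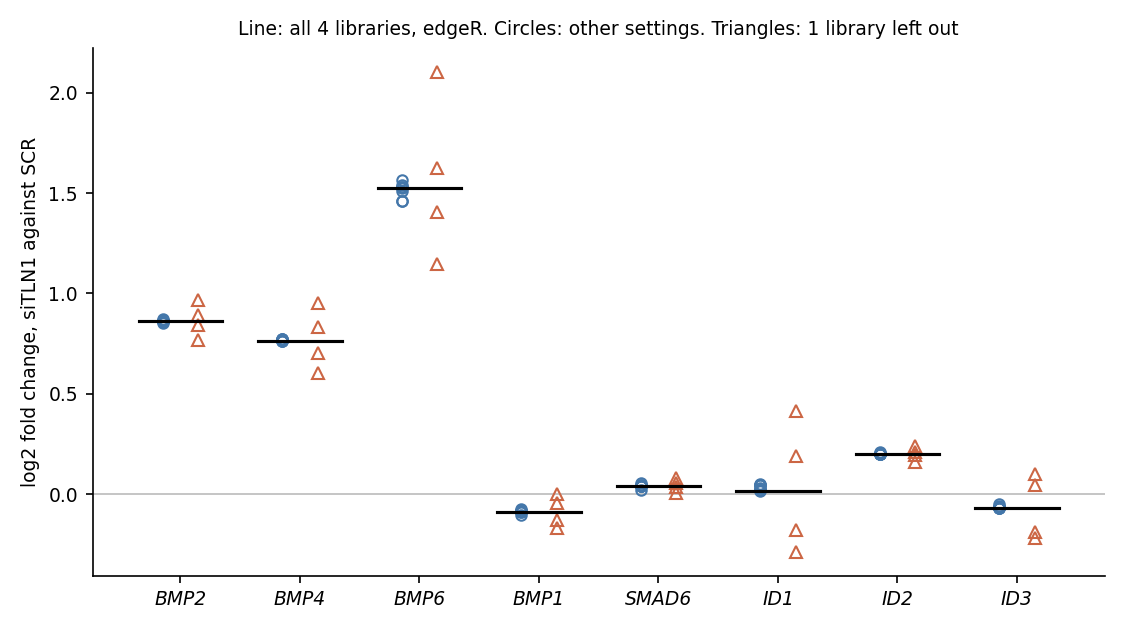
Log2 fold change (y axis, siTLN1 against SCR) of the 8 tested members. Lines are edgeR values with all 4 libraries, circles the other scalings, filters and tools, and triangles the 4 fits that each left out 1 library; BMP2 and BMP4 stay above 0.60 throughout, BMP6 runs from 1.15 to 2.11, and the triangles of ID1, ID3 and BMP1 fall on both sides of 0.

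BMP2 kept its call under every alternative run, with log2 fold changes from 0.77 without SCR library a to 0.97 without SCR library b. BMP4 kept its call as well, from 0.60 without SCR library a to 0.95 without SCR library b. The highest adjusted p was 0.00262 for BMP2 and 0.0216 for BMP4, in each case without siTLN1 library a.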

How the data were processed

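The authors deposited raw counts of read pairs per gene, which came from featureCounts 2.0.0 run for pairs, without a strand or multimapping option, against GENCODE 33, per the file headers. The build was GRCh38, per the submitters' processing notes. STAR 2.7.9a and edgeR 3.34.1 are named in the submitters' processing notes. The authors also deposited log2 CPM values for 16137 genes. Sorted within groups, 100% of these equalled edgeR's TMM-scaled log2 CPM within 1e-06. Exon lengths were read from the count table.

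Each count column was assigned to a group and to no numbered replicate, since the number in its name matches no replicate label. The log2 CPM values were compared only after sorting within groups. They were not used to match count columns to replicates, so whether a and b follow the replicate numbers was not examined. Symbols came from a table of gene names, and 60357 of 60721 identifiers matched. Here the counts were filtered with filterByExpr (minimum count 10, minimum total 15), scaled by TMM and tested with edgeR 4.0.16 (R 4.3.3; estimateDisp, robust glmQLFit, glmQLFTest; Benjamini-Hochberg, threshold 0.05). The fit also gave the standard errors and 95% intervals. CPM was scaled by TMM, with SDs over 2 libraries. The tested genes held 99.9% of the counts of each library. P-values measure the spread between these libraries.

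Members and lists were chosen with earlier results of these data known. Named genes are the members, TLN1, the genes past the threshold in each pathway list (at most 4; 1 is not reported here) and the gene of each list with the highest SCR level per exon length. The other settings tried were no filter, scaling by RLE or by total counts only, a mean of at least 10 counts, DESeq2 1.42.0, limma-voom and limma-trend (limma 3.58.1), a replicate block, removal of the gene-length trend (loess span 0.3) and each library left out. Fits were tested on simulated data. Promoters come from RefSeq (GRCh38.p14) and transcripts from GENCODE 29, an earlier release than that of the counts.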

Additional observations from a re-analysis of the deposited data

How the results depend on the processing

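Over the whole table edgeR called 980 genes, limma-trend on the authors' log2 CPM called 966, and the same limma-trend fit with the replicate block called 3645, and 970 of the 980 were among them. With the block, 19 other pathway genes passed in place of 7, and ID2 passed (log2 fold change 0.20, adjusted p = 0.0277; 0.168 to 0.391 under the other settings with all 4 libraries). As a check of pairing by replicate number, the replicate 1 minus 2 difference in SCR was set against that in siTLN1, and across genes r was 0.19 (0.54 over genes above 5 CPM). Both r values were positive, so the replicate differences of the 2 groups went partly together. No label ties equal numbers to a shared preparation and there are only 2 pairs, so what equal numbers share was not tested. The main test used no pairing. Without the block, the whole-table count ran from 663 with no filter to 1403 with the gene-length trend removed.

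With 1 library left out, the lone library of its group is assumed to vary like the others. The whole-table count then ran from 324 (without siTLN1 library a) to 1100, the count of other pathway genes from 2 (without siTLN1 library a) to 9, and the count of members from 2 to 3. The sign turned in some of these fits for BMP1 (−0.17 to 0.00022), ID1 (−0.29 to 0.41), ID3 (−0.22 to 0.098), PCOLCE (−0.26 to 0.094) and ENG (−0.15 to 0.052), none of which passed with all 4 libraries. With all 4 libraries, 193 values of named genes kept sign and call, 4 gained a call (ID2 once, RUNX2 3 times) and DESeq2 gave BMP6 no adjusted p, so that it called 2 members. GREM1 and BMP6 had at most 10 and 48 raw counts per library, and each group held 2 libraries.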
